A study of Mus musculus with 2 samples.

Results

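The genes of the red cell membrane skeleton described here are Sptb, Ank1, Epb41, Epb42, Slc4a1, Add1, Add2, Dmtn and Tmod1. They were chosen by name, as genes for the proteins that build the skeleton and tie it to the membrane, and not by their values. All 9 were matched to an identifier in the gene tables, out of 43346 mouse gene identifiers. The series holds 2 total RNA-seq libraries of liver from healthy B6NCrl embryos of embryonic day 12.5, in 1 group with no treatment or mutant. Replicate 1 was a pool of 120 embryos and replicate 2 a pool of 88, each of mixed sex. The gene tables held 37562365 and 34729954 estimated reads. Pools average over embryos, so the spread between them does not measure the variation between animals, and 1 group allows no test of a condition.

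The red cell membrane is held up by a lattice of long spectrin chains that meet at short actin filaments. Ankyrin fastens beta-spectrin to the anion exchanger band 3, and protein 4.1, adducin, dematin and tropomodulin hold the spectrin to the actin filaments and set the length of those filaments. Inherited defects in several of these proteins give fragile, round or elliptical red cells. The fetal liver is the main site of red cell formation at midgestation, and many of these genes have separate transcript forms in red cell precursors and in other tissues.

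Levels are given as TPM, the usual length-scaled transcript abundance, which divides estimated reads by transcript length and so can be compared between genes of a library. In bulk tissue, fewer cells of a type and less RNA per cell cannot be told apart. Erythroblast markers were high throughout: all 9 listed genes, among them Hba-a1, Gata1, Klf1, Alas2 and Epor, were above 100 TPM in both libraries. Of 6 hepatoblast markers 5 were above that level. Over all 12841 genes at 1 TPM or more in both libraries, 9.59% reached 100 TPM. The 5 megakaryocyte markers summed to 973 and 861 TPM in replicates 1 and 2. The 5 macrophage markers summed to 135 and 137 TPM and the 4 endothelial markers to 61.0 and 56.9 TPM. The 4 neural markers summed to 2.34 and 2.55 TPM. The 5 kidney markers summed to 5.76 and 6.47 TPM, nearly all of it Wt1 at 5.72 and 6.30 TPM, and Atp6v1b1 had no read in either library. The 6 heart muscle markers summed to 31.7 and 43.1 TPM. Skeletal muscle markers were low and uneven, with 5 genes that summed to 3.61 and 11.1 TPM in replicates 1 and 2. Of all marker genes with a mean of at least 50 estimated reads, Myog, Myh3, Acta1, Actc1 and Tnnt2, all genes of muscle, differed by more than 1.5-fold, and each was lower in replicate 1.

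All 9 skeleton genes were abundant, and their levels spanned from 39.8 TPM for the filament cap Tmod1 to 819 TPM for band 3. The median over the 9 mean levels was 110 TPM, against 12.7 TPM over the 12841 genes at 1 TPM or more in both libraries. Of the 9, 5 reached 100 TPM in both libraries, namely Slc4a1, Epb41, Epb42, Add1 and Dmtn, while 9.59% of the 12841 detected genes did. Together the 9 genes held 207912 estimated reads in replicate 1, 0.554% of that library, and 202872 in replicate 2, 0.584% of it. Slc4a1 alone made up 50.6% and 51.1% of their summed TPM. By mean TPM they ranked from 107 for Slc4a1 to 3004 for Tmod1 among the detected genes.

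**Figure D1:**
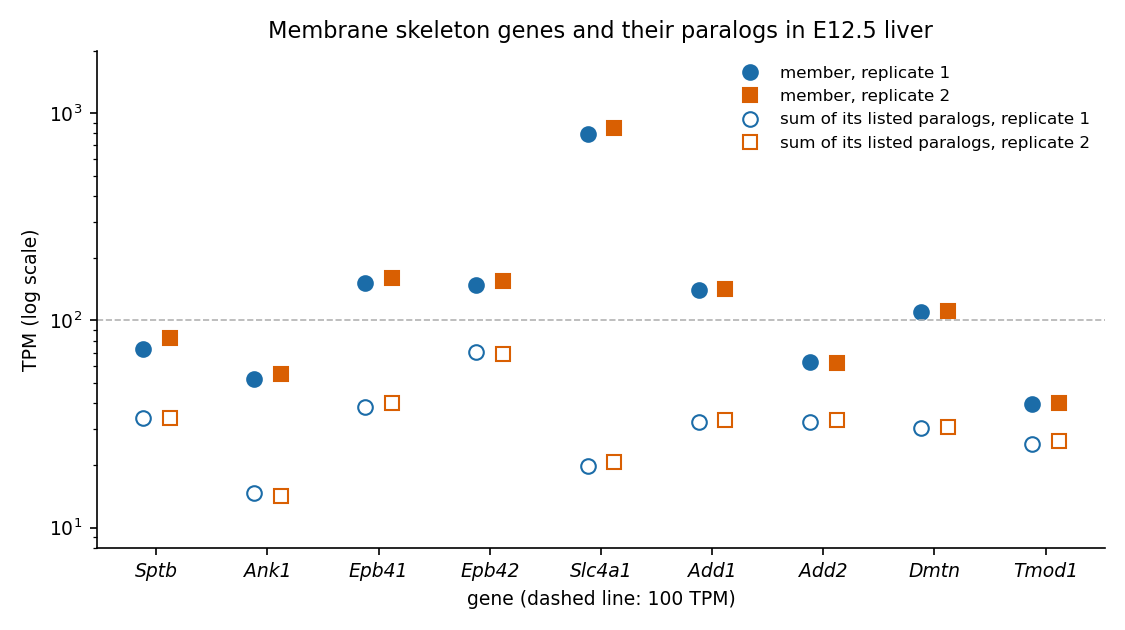
TPM on a log axis for each skeleton gene (filled symbols) and for the sum of its listed paralogs (open symbols) in replicate 1 (circles) and replicate 2 (squares). Add1 and Add2 are both set beside Add3, and the dashed line marks 100 TPM. Slc4a1 stood above all others, and each gene lay above its paralog sum in both libraries.

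Slc4a1 encodes band 3, the chloride-bicarbonate exchanger that anchors the skeleton from within the membrane (chromosome 11, 102348824 to 102366203 in GRCm38). It measured 795 and 844 TPM in replicates 1 and 2, from 111113 and 108994 estimated reads. Epb42 encodes protein 4.2, a transglutaminase relative without enzyme activity that binds band 3 and ankyrin. It measured 148 and 154 TPM. By gene TPM, over all models, Slc4a1 was thus 5.38 and 5.47 times as abundant as Epb42. Complete coding models held only 39.8% and 38.7% of Epb42 TPM, against 99.9% and 99.7% of Slc4a1 TPM. The ratio between coding models alone was therefore larger. Ank1, which joins band 3 to beta-spectrin, was lower, with 52.4 and 54.9 TPM from 10091 and 10015 reads. The ratio of Slc4a1 to Ank1 was 15.2 in replicate 1 and 15.4 in replicate 2, so the order of these 3 genes was the same in both libraries.

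Sptb encodes the beta chain of red cell spectrin (chromosome 12, 76580488 to 76710547). It measured 72.7 and 82.1 TPM in replicates 1 and 2, from 18519 and 19398 reads, with a mean of 77.4 ± 6.69 TPM (SD, n = 2). Sptb exceeded Ank1, by 1.39 and 1.496 times.

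Epb41 encodes protein 4.1, which strengthens the contact of spectrin with actin and binds glycophorin C (chromosome 4, 131923413 to 132075321). It measured 151 and 159 TPM, from 19377 and 18797 reads, and its level was close to that of Gypc, with a ratio of 1.00 in replicate 1 and 1.04 in replicate 2. Add1 and Add2 encode alpha- and beta-adducin, which cap the fast-growing end of actin filaments and recruit spectrin. Add1 measured 140 and 142 TPM and Add2 63.2 and 62.2 TPM. The alpha subunit was 2.21 and 2.28 times as abundant as the beta subunit, which it joins in red cell adducin. Add3, the gamma subunit of most other tissues, measured 32.5 and 33.0 TPM, below Add2 in both libraries.

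Dmtn encodes dematin, an actin-bundling protein (chromosome 14, 70601263 to 70636048). It measured 109 and 111 TPM, from 14047 and 13216 reads. Tmod1 encodes tropomodulin, which caps the slow-growing end of the filaments (chromosome 4, 46038935 to 46116032), and measured 39.5 and 40.2 TPM, from 3774 and 3529 reads. It was the lowest of the 9, with a mean level of 39.8 TPM. In the order of mean levels, Epb41 and Epb42 were neighbours at 155 and 151 TPM with SDs of 5.73 and 4.66 TPM. Their means differed by less than the SD of either, although Epb41 was the higher in each library. The steps from Epb42 to Add1, Add1 to Dmtn, Dmtn to Sptb, Sptb to Add2, Add2 to Ank1 and Ank1 to Tmod1 also kept their direction in both libraries.

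By gene TPM, over all models of a gene, each red cell member was more abundant than the rest of its listed family. In all 8 families the member, or Add1 and Add2 together, exceeded the summed paralogs in both libraries. The margin was widest for band 3, whose 4 listed paralogs summed to 19.9 and 20.8 TPM, giving a ratio of 40.0 in replicate 1 and 40.6 in replicate 2. The adducins, Add1 and Add2 summed, followed with 6.24 and 6.18. Taken singly, Add1 was 4.29 and 4.29 times Add3, and Add2 only 1.94 and 1.89 times. The next family was protein 4.1 with 3.97 and 4.00. Ank1 exceeded Ank2 and Ank3, the ankyrins of muscle and neurons among other tissues, by 3.57 and 3.86 times, and Dmtn exceeded its 6 relatives by 3.62 and 3.64 times. Sptb was 2.16 and 2.42 times the sum of its listed relatives, most of which was Sptbn1 at 21 and 21.1 TPM and Sptan1 at 12.4 and 12.6 TPM.

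The closest margins were those of tropomodulin and protein 4.2. Tmod1 was 1.55 and 1.53 times the sum of its paralogs, nearly all of it from Tmod3, the tropomodulin of most cells, at 24.7 and 24.9 TPM. Epb42 was 2.10 and 2.24 times its relatives, of which Tgm2, tissue transglutaminase, gave 60.8 and 60.2 TPM. That margin counts Epb42 models without a coding part. Its coding models were Epb42-202 at 44.5 and 43.3 TPM and Epb42-201 at 14.4 and 16.5 TPM. Together they stayed below the summed relatives, at 70.4 and 68.8 TPM, whose coding models were not separated. Tgm3 had no read in either library. Among the paralogs with a mean of at least 50 estimated reads none differed by more than 1.5-fold between the libraries. The paralogs are expressed by many cell types, and which cells of the liver held these reads was not tested.

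Of 26 other genes of the red cell membrane, 17 reached 100 TPM in both libraries, and their median was 185 TPM. Among all 12841 detected genes 9.59% reached it, and the median was 12.7 TPM. Among the highest were the actin gene Actb at 2754 and 2874 TPM, Bsg, which encodes basigin, at 910 and 875 TPM, Actg1 at 878 and 826 TPM, and the Rh antigen gene Rhd at 415 and 417 TPM. Actin and basigin are made by most cells. All 26 were detected, down to Bcam at 9.85 and 9.62 TPM.

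The 2 libraries agreed closely for these genes. Of the 9, 8 were lower in replicate 1, against 47.3% of the 13017 genes with a mean of at least 50 estimated reads. Of the 9, 1 was lower by at least 1.1-fold, against 16.4% of those genes. That gene was Sptb, which was 1.13-fold higher in replicate 2 (exact 95% interval of the counts 1.11 to 1.15). Slc4a1 was 1.06-fold higher (1.05 to 1.07), Epb41 1.05-fold (1.03 to 1.08), Ank1 1.05-fold (1.02 to 1.08) and Epb42 1.04-fold (1.02 to 1.07). The intervals of Add1, Add2, Dmtn and Tmod1 all included 1, and Add2 was the gene higher in replicate 1. These intervals cover counting error only and do not hold the variation between pools.

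When the libraries were centred on the added spike-in RNAs instead, the whole scale moved by 0.12 on the log2 scale. Sptb was then the only 1 of the 9 lower in replicate 1, by less than 1.1-fold. The 7 others that had been lower changed sign, and of these Ank1, Epb41, Epb42 and Slc4a1 had intervals without 1 as deposited. The median log2 ratio of the 9 was -0.06 as deposited and 0.05 with this centring, while the median over all detected genes was 0.01 as deposited. The centring moves that median up by the same 0.12, so the median of the 9 stayed below it on either scale. Sptb has a long transcript, with an effective length of 8098 bases in replicate 1. Among 425 genes of 6000 bases or more and at least 500 mean reads, 12% were as low in replicate 1 as Sptb, whereas 3.07% of 2312 genes of 1000 to 2000 bases were. The part of transcript length in the Sptb value was not tested.

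**Figure D2:**
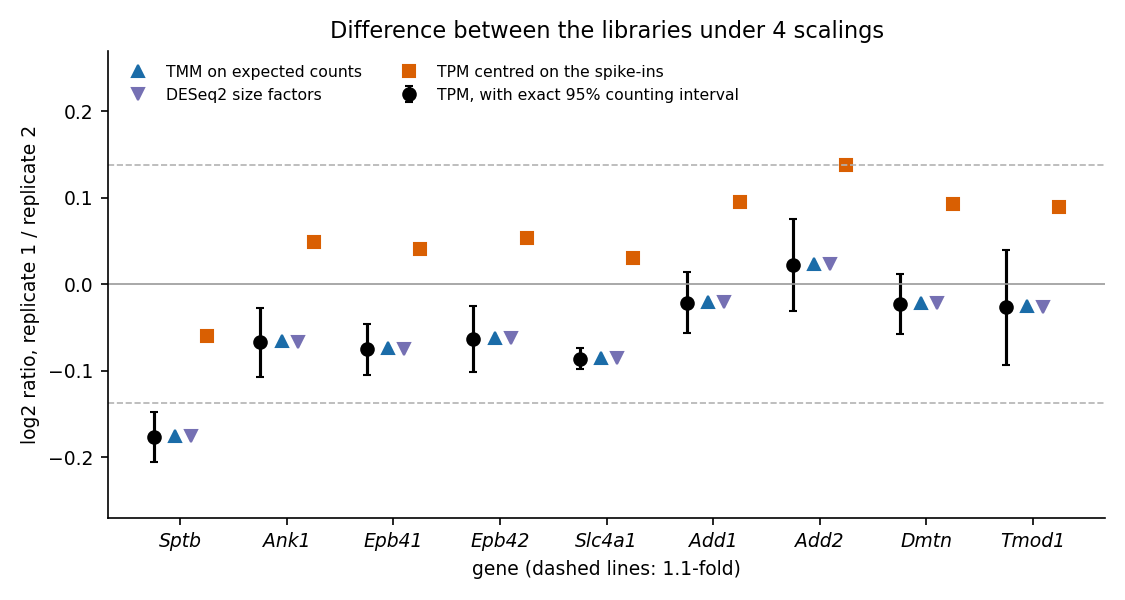
Log2 ratio of replicate 1 to replicate 2 for each gene, from TPM with exact 95% intervals of the counts (black), TMM factors, DESeq2 size factors and spike-in centring. Under the first 3 scalings 8 of 9 genes lay below 0 and Sptb alone passed the lower 1.1-fold line. With spike-in centring 8 of 9 lay above 0.

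The transcript tables split each gene's TPM among annotated models, and the percent held by a model is its isoform share. The 9 genes had 72 models. In 8 genes with more than 1 model, 7 had the same leading model in both libraries, against 95.6% of 5275 genes with at least 2 models and 10 TPM. With Add2 counted at 100% through its single model, the median share of the leading model over the 9 was 92.2%. That was the share of Dmtn, and the next lower share was 46.4%, for Epb41, so this median describes only some of the genes. The genes fell into those that used nearly 1 model alone, namely Slc4a1, Tmod1, Sptb and Dmtn, and those whose TPM was divided, namely Ank1, Epb41, Epb42 and Add1. Add2 had a single model in the tables, so its isoforms could not be compared. That model starts 49403 bases from the RefSeq start site of the gene.

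**Figure D3:**
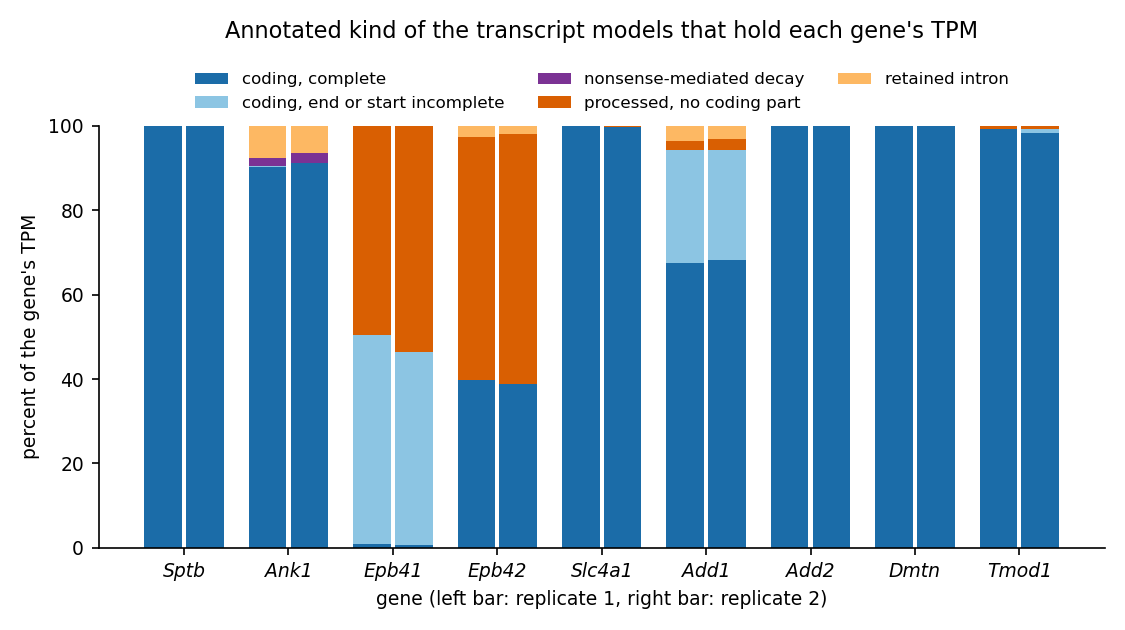
Percent of each gene's TPM held by models of each annotated kind, with replicate 1 as the left and replicate 2 as the right bar. Complete coding models held nearly all of Sptb, Slc4a1, Add2, Dmtn and Tmod1, but under 1% of Epb41 and under 40% of Epb42.

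Band 3 came almost wholly from 1 model, Slc4a1-201, which held 99.9% and 99.7% of its TPM and encodes 929 residues. It was the only coding model of the 5 listed, so the kidney form, which starts further downstream, could not be measured separately. Tmod1-201, with 359 residues, held 99.2% and 98.2%. Sptb offered a choice between 2 coding ends. Sptb-202, whose 2137 residues are the length of the known red cell form, held 95.1% and 94.7%, or 69.1 and 77.7 TPM. Sptb-201, which runs on to 2329 residues and has the longer tail known from muscle and brain, held 4.91% and 5.32%, or 3.57 and 4.37 TPM. Both forms were therefore higher in replicate 2, and the short form predominated in both libraries. The heart muscle marker sum of 31.7 and 43.1 TPM and the skeletal muscle sum of 3.61 and 11.1 TPM were also higher in replicate 2. Of the 6 heart markers 5 were lower in replicate 1, with the widest gap for Actc1, at 7.98 and 17.7 TPM. Myl7, the highest of them, was not, at 19.5 and 18.9 TPM, and Tnni3 was nearly level at 1.45 and 1.46 TPM. The part of either muscle in the long form was not tested.

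The short beta-spectrin chain ends with 66 coding bases that the long form lacks, on the minus strand of chromosome 12 from 76597660 to 76597725 in GRCm38. They encode 22 residues and are shown in capitals after 15 bases that both forms share.
Sptb-202 end: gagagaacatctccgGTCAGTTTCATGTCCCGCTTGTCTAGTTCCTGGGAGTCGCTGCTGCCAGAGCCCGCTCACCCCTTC
Almost all Sptb TPM, as given above, belonged to the model with this ending.

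Dematin was also mainly of 1 form. Dmtn-203, with 383 residues, held 91.6% and 92.9%, and Dmtn-202, with 380 residues, held 8.42% and 7.09%. Dmtn-201, with 405 residues, was at 0 in both libraries. The models differ in a 66-base exon, the insert of 22 residues that sets the larger dematin subunit apart from the smaller one, which Dmtn-203 skips. Models holding this exon had 8.42% and 7.10% of Dmtn TPM. The model that held it lacked a 75-base exon upstream, which 91.6% and 92.9% of the TPM contained. The models Dmtn-201 and Dmtn-203 have a different length in the annotation read here from the length deposited. Dmtn-203 has 4176 bases against 4187 deposited, and Dmtn-201 has 5418 against 4129. Their exons may therefore differ from those used to make the tables, and for Dmtn-201 by more than a few bases.

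Alpha-adducin was split between a long and a truncated form. Add1-205, with 735 residues and the lysine-rich tail of adducin, held 29.3% and 30.4%, or 40.9 and 43.0 TPM. Add1-204, with 632 residues and no such tail, held 31.6% and 31.5%, or 44.1 and 44.6 TPM. The deposited intervals of the pair overlapped in each library, at 35.98 to 43.9 and 39.2 to 47.4 TPM in replicate 1, so neither form led beyond that error. Add1-213, a model whose start is incomplete, held a further 19.7% and 16.7% and shares the truncated ending. Add1-212, which has no coding end, held 7.06% and 8.99%.

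The truncated forms of Add1 hold a 37-base exon at 34629136 to 34629172 on the plus strand of chromosome 5. Their last amino acid codon ends in this exon, at 34629170, and their stop codon is not complete within it. The exon is shown in capitals after 15 bases of the exon before it.
Add1 37-base exon: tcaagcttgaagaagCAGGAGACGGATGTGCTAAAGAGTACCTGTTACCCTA
Models with this exon, counting a variant shorter by a few bases, had 66.3% and 64.2% of the TPM that spanned it. Without models that have incomplete ends the values were 56.5% and 55.4%. More of the Add1 TPM thus held this exon than skipped it in both libraries by either count.

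Protein 4.1 stood apart because complete coding models took up very few of its reads. Complete coding models held 0.87% and 0.77% of Epb41 TPM, coding models with an incomplete start or end held 49.6% and 45.6%, and models without a coding part 49.5% and 53.6%. The leading model, Epb41-215, held 45.7% and 47.1%, or 69.2 and 75.03 TPM, and is annotated as a processed transcript although it spans 18 exons and 5074 bases. Epb41-212 held 14.6% and 15.8%, Epb41-216 13.8% and 12.7%, and Epb41-218 11.3% and 9.20%. Each of these 3 begins inside the gene. Epb41 and Epb42 were the 2 of 8 genes with several models whose leading model was not annotated as coding in at least 1 library, against 8.07% of 5165 coding genes.

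Protein 4.1 is made in several sizes. Translation from an upstream start codon gives the large form of many cells, and skipping of that codon gives the smaller form that predominates in red cells. Models holding the upstream start codon had 15.4% and 15.9% of the Epb41 TPM that spanned it, and models skipping it held 70.2 and 75.8 TPM. Over models with complete ends the values were 2.41% and 6.32%. Epb41-213, a model with an incomplete end whose coding part begins at the upstream codon, held 7.32% and 5.80%. Models that begin at the most upstream RefSeq start site, at position 132075313 of chromosome 4, had 47.3% and 50.4% of Epb41 TPM, nearly all in Epb41-215. The start site at 132049078 had 7.32% and 5.80%, and the one at 132072097 had 0.21% and 0.29%. A further 42.3% and 39.8% was in models with no complete start, which could be assigned to no start site.

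An internal exon of 63 bases in Epb41 encodes 21 residues of the spectrin-actin binding domain, and its inclusion is known to rise as red cell precursors mature. It lies on the minus strand of chromosome 4 from 131962924 to 131962986 and is in capitals, between 15 bases of each neighbouring exon.
Epb41 63-base exon: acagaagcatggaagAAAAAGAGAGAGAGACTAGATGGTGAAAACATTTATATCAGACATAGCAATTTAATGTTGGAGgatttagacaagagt
Models with the exon held 55.4 and 55.9 TPM in replicates 1 and 2, and models that skipped it 73.2 and 78.4 TPM. Its inclusion was therefore 43.1% and 41.6%. The 57-base and 42-base exons beside it were included at 8.87% and 7.24% and at 16.5% and 15.5%. The 63-base exon was thus the most included of the 3 in both libraries. These values rest on models with incomplete ends, and over models with complete ends, which are mostly Epb41-215, the 63-base exon was held by 1.87% and 1.60%.

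**Figure D4:**
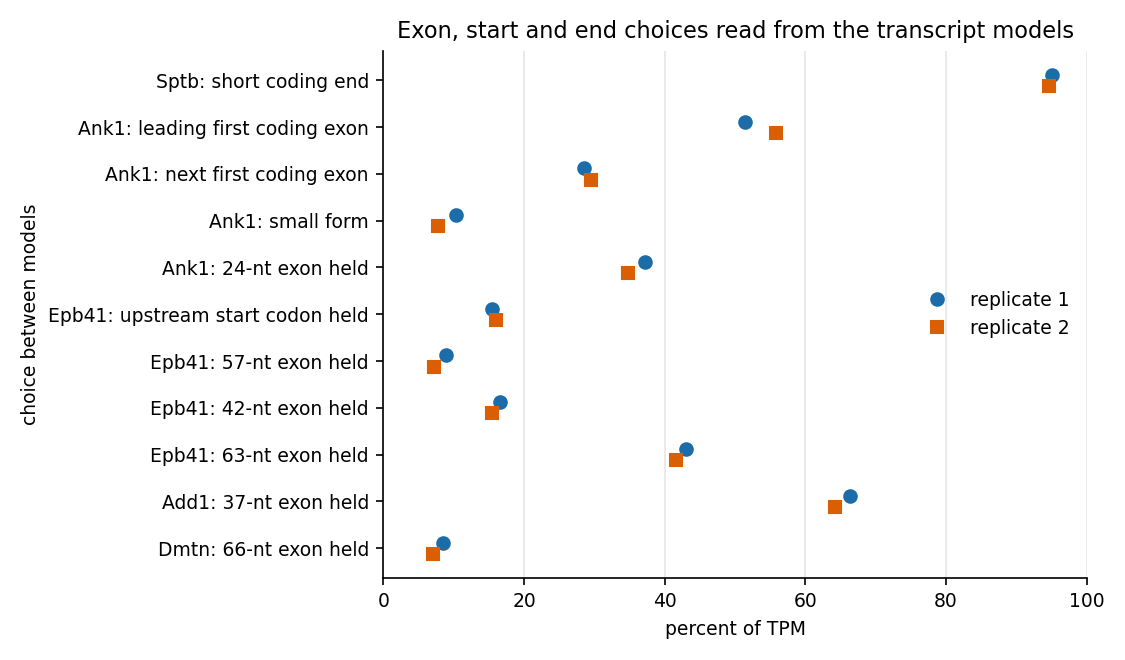
Percent of TPM in replicate 1 (circles) and replicate 2 (squares) for each choice of exon, start or end, over the models that span it for exons and over the gene for starts and ends. The short Sptb end lay near 95%, the 63-base Epb41 exon near 42%, and the 66-base Dmtn exon near 8%.

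Protein 4.2 was the gene whose leading model changed between libraries. Epb42-202, which encodes 691 residues, held 30.1% and 28.1%, and Epb42-206, without a coding part, held 26.9% and 29.9%. Their intervals overlapped, at 40.6 to 46.8 and 34.5 to 43.0 TPM in replicate 1, and at 39.6 to 45.8 and 40.9 to 49.9 TPM in the other library. Epb42-203 held 19.8% and 17.7% and Epb42-204 10.7% and 10.4%, both also without a coding part. Epb42-201, a coding model of 673 residues with a different ending, held 9.76% and 10.7%. Models annotated as processed transcripts thus held 57.6% and 59.2%, and a retained-intron model a further 2.56% and 2.03%. By expected counts, which are not divided by length, the leading share averaged 48.7% over the libraries in place of 30.0%. By TPM among coding models alone, the leading share averaged 74.0%. Epb42-206 lies over the last 3 of 13 exons of Epb42-202 and Epb42-203 over the last 7, so they overlap the coding model. The number of shared bases was not measured.

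Ankyrin-1 TPM was divided among many of its 17 models. Ank1-206 led with 31.3% and 31.7%, or 16.4 and 17.4 TPM, followed by Ank1-207 with 17.0% and 19.6% and Ank1-205 with 13.7% and 17.2%. The deposited interval of Ank1-207 ran from 1.21 to 11.2 TPM in replicate 2, so its order relative to Ank1-205 was not resolved. Ank1-212, a retained intron, held 7.26% and 5.96%. Ank1-201, a small ankyrin of 156 residues whose relatives anchor the reticulum of muscle, held 10.2% and 7.78%, from 157 and 116 reads. Its intervals of 3.98 to 6.95 and 2.60 to 5.72 TPM overlapped. The small form was higher in replicate 1 and the 5 skeletal muscle markers were all lower there, and the part of muscle in it was not tested.

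**Figure D5:**
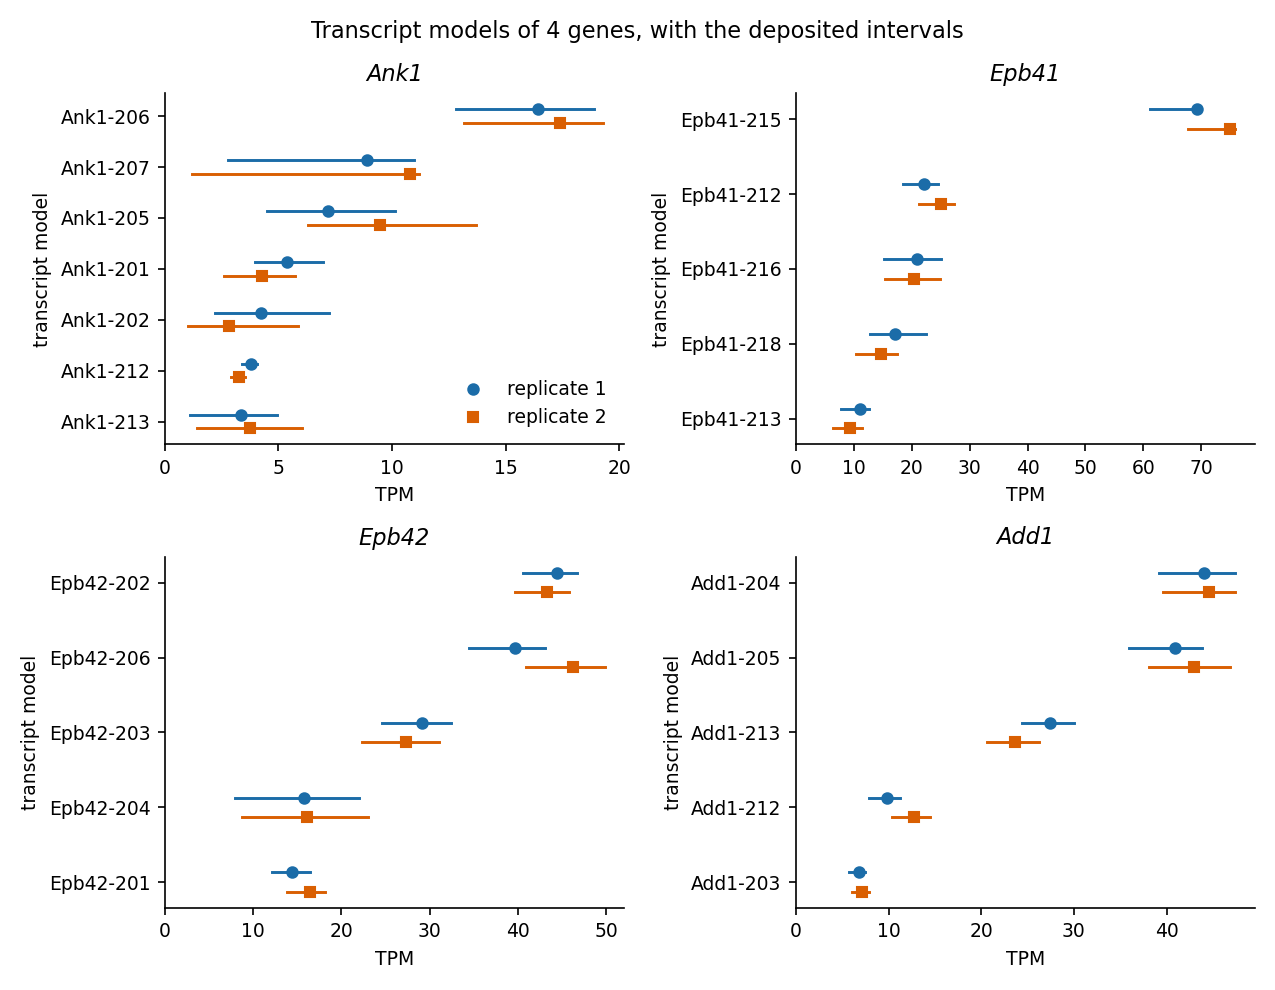
TPM of the models with a share of at least 5% in either library for Ank1, Epb41, Epb42 and Add1, in replicate 1 (circles) and replicate 2 (squares), with the deposited intervals as lines. The Ank1 intervals are wide for their level, while Epb41-215 stands apart from the other Epb41 models.

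The long Ank1 models begin at different first coding exons, which splice to the same next exon. The annotation does not name the one used in red cells, so they are given by position. Models whose coding part begins at 23035231 of chromosome 8 had 51.4% and 55.8% of Ank1 TPM. Those whose coding part begins at 23058632 had 28.5% and 29.6%, with the nonsense-mediated decay models Ank1-210 and Ank1-216 among them. Those whose coding part begins furthest upstream, at 22975136, had 2.25% and 0.27%. By the deposited posterior means they had 3.83% and 5.41%, so the direction between the libraries turned and this share was not resolved. The coding bases of the 2 leading first exons are in capitals, followed by 15 shared bases.
Ank1 start at 23035231: ATGGGCTTCTGTAAAgccgatgctgctacc
Ank1 start at 23058632: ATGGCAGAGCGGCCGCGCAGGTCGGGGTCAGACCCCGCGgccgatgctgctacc
The first of them gives 15 coding bases and the second 39 before the shared sequence, so the coding sequence that tells them apart is short. Untranslated bases, not shown here, come before it, since Ank1-206 begins at 23035099 and Ank1-207 at 23058311.

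Further along, a 24-base exon of Ank1 at 23110347 to 23110370 was held by 37.2% and 34.8% of the TPM that spanned it. It is in capitals between 15 bases of each neighbouring exon.
Ank1 24-base exon: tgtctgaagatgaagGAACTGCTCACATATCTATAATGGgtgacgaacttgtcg
Most of the Ank1 TPM, 73.6% and 76.3%, was in models that share 1 coding end at 23141691, and 16.8% and 14.9% was in models that end at 23148304, the small form among them.

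RefSeq start sites were available for 6 of the 9 genes, with 8 windows of 250 bases before a start. GATA1 and KLF1 are transcription factors of red cell precursors, known to bind GATA and CACCC sequences. AGATAA or TGATAA, on either strand, was found in 1 of the 8 windows and in 16.6% of all 32851 windows of that length. CCNCNCCC on either strand was found in 6 of the 8 and in 45.9% of all windows. Matches of CCNCNCCC can overlap each other, and a match is a description of letters only. The window with the GATA match, that of Epb42, and the window of the most used Epb41 start site are shown on their own strand, the minus strand, with matches in capitals (RefSeq, GRCm38.p6).
Epb42, chr2:121036878-121037127: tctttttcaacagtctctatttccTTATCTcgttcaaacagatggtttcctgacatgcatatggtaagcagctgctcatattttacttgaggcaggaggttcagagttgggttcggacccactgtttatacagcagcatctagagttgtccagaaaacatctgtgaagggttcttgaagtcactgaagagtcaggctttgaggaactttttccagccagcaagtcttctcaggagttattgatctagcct
Epb41, chr4:132075314-132075563: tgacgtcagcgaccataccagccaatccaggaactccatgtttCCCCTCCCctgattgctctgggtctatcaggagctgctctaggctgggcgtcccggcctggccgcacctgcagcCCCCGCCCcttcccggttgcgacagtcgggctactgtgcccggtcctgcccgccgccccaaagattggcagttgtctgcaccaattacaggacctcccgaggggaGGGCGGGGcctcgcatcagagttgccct
The AGATAA match of Epb42 lies 226 bases before its start, on the opposite strand. The Epb41 window has 3 matches of CCNCNCCC and none of the GATA letters.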

How the data were processed

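Total RNA-seq of 2 pooled liver samples of 1 group was analysed. Per the file headers, the authors quantified mm10 genes and transcripts of GENCODE M4. No aligner, quantifier or strandedness is given in the sources used here, so genes that overlap on opposite strands cannot be told apart. The deposited expected counts are the authors' estimated reads per gene or transcript, unnormalized and not always whole. The deposited TPM values sum to a fixed total per library, spike-ins included. Isoform shares are the authors' deposited values, as the percent of gene TPM assigned to a model. The deposited interval bounds of TPM are treated as a signal range of unstated level and lie around the posterior mean, which can fall below the printed TPM.

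Symbols came from a gene name table, and exons, coding parts and sequences from GENCODE M21 on the same assembly. Of the 72 models, 70 had the deposited length. Log2 ratios used TPM plus 0.1. Ratio intervals are exact (Clopper-Pearson, 95%) from rounded expected counts. An exon's inclusion is the TPM of models holding it over that of models holding or skipping it. Python 3.11.15, scipy 1.17.1, edgeR 4.0.16 (TMM) and DESeq2 1.42.0 (size factors) were used, and the ratio and scaling steps were tested on simulated data. All 9 genes are named. Of the other lists every gene is counted, and the genes named are among the 5 most abundant (1 is not reported here), those with no read and those more than 1.5-fold apart. Gypc, Bcam and the adducin, spectrin and tropomodulin relatives are named as partners or as the lowest. Models are named from a share of 10%, or 5% for a separate product, and a few others to complete a choice. The genes and lists were chosen with earlier results of these data known.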

Additional observations from a re-analysis of the deposited data

How the results depend on the processing

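The count of genes at 100 TPM was 5 as reported and from each library alone, 8 at a limit of 50 TPM and 1 at 200 TPM. The share of all detected genes was measured only at 100 TPM, where it was 9.59%. The median level of 110 TPM became 117 TPM without spike-ins, 160 TPM without spike-ins and globins, and 108 TPM from posterior means, and it was 109 and 111 TPM in single libraries. The count of genes lower in replicate 1 by 1.1-fold was 1, and it became 0 with spike-in centring, 0 at 1.2-fold and 8 for any difference. Over all genes with a mean of at least 50 estimated reads, the share was 16.4% as reported. It became 7.25% with spike-in centring, 6.85% at 1.2-fold and 47.3% for any difference. With spike-in centring the log2 ratio was 0.049 for Ank1, 0.041 for Epb41, 0.053 for Epb42 and 0.030 for Slc4a1, the reverse of their direction as deposited. Add1 at 0.095, Dmtn at 0.093 and Tmod1 at 0.090 also changed sign, from values whose intervals held 0, and Add2 was higher in replicate 1 by 0.14. Leading models were the same in 7 genes as reported and in 8 by expected counts. The paralog result was 8 of 8 families under every alternative tried, none of which was limited to coding models. The median leading share, with Add2 counted at 100% through its single model, ranged from 91.6% to 92.9% in single libraries. The inclusion of Epb41 exons fell when models with incomplete ends were left out, an alternative chosen after seeing the data, from 42.3% to 1.74% for the 63-base exon, and from 15.7% to 4.36% for the upstream start codon, because Epb41-215 then holds nearly all the TPM. No paired analysis was possible because the 2 libraries form 1 group. Leaving out a library gives no ratio. Every one of the 9 genes had at least 3529 estimated reads in each library, so counting error was small for genes, and the split between similar models is limited by the sequence they share.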
